A study of Mus musculus with 4 samples.

Results

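The genes examined here encode 8 transcription factors of the epithelial-to-mesenchymal transition (EMT): *Twist1* and *Twist2*, the Snail genes *Snai1*, *Snai2* and *Snai3*, the Zeb genes *Zeb1* and *Zeb2*, and *Tcf3*, which encodes the E proteins E12 and E47. They were chosen by gene name, and all 8 were found among the 46983 genes of each table. The libraries came from larynx tissue of mouse embryos at E10.5 (32 to 35 somites), with 2 *Shh-/-* pools and 2 WT (Swiss Webster) pools, each made from 3 larynxes. The mutant pools carried the *Shhtm1amc* null allele, which was kept on a Swiss Webster background. The sample labels write their genotype as Shh+/-, which is also the name the study gives to the allele, and the series' design states *Shh-/-*, which is used here. The pools hold different embryos, so the spread between pools covers both the embryos and the handling of each pool. *Shh* encodes the Hedgehog (HH) ligand that the foregut epithelium sends to the surrounding mesenchyme, and the comparison asks which genes depend on it in the larynx at this stage.

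All 8 factors bind the E-box, a short DNA motif, but they belong to different protein families. Twist and E proteins have a basic helix-loop-helix (bHLH) domain and bind DNA as dimers, often 1 Twist with 1 E protein. Snail proteins bind through zinc fingers and recruit co-repressors through an N-terminal SNAG domain, while Zeb proteins carry zinc finger clusters on either side of a homeodomain. In epithelia that undergo EMT these factors repress junction genes such as *Cdh1*, the gene of E-Cadherin. In the embryo they are also genes of ordinary mesenchyme and neural crest, so their RNA in whole tissue does not by itself mark epithelial cells in transition.

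The windows of 250 bases just before the start of transcription are shown for 4 genes. *Twist1* and *Twist2* are shown because these paralogues differed in the libraries, *Snai1* because it was the member whose window held a Snail or Zeb type of E-box, and *Crb3*, an epithelial polarity gene, because its window held 3 of them. The sequences are from RefSeq on GRCm38.p6, written 5′ to 3′ on the strand of the gene, which is the plus strand in each case. Capitals mark CAGGTG or CACCTG, which are the same motif read on the 2 strands. The window of *Twist1* is chr12:33957421-33957670, that of *Twist2* is chr1:91801211-91801460, that of *Snai1* is chr2:167537945-167538194 and that of *Crb3* is chr17:57061951-57062200.
Twist1: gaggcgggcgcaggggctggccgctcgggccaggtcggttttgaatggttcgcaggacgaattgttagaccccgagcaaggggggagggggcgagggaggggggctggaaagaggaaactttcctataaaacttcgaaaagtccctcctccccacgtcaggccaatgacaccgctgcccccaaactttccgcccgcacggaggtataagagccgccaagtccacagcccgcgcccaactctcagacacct
Twist2: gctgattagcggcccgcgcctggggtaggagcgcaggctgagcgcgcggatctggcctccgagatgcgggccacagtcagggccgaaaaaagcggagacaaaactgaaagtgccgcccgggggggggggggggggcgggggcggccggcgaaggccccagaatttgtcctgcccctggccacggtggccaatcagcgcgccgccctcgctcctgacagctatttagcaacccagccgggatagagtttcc
Snai1: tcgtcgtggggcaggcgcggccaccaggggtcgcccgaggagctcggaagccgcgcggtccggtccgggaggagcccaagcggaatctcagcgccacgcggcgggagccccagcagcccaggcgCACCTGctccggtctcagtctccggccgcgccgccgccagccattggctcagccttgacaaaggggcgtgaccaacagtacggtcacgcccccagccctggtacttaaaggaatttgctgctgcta
Crb3: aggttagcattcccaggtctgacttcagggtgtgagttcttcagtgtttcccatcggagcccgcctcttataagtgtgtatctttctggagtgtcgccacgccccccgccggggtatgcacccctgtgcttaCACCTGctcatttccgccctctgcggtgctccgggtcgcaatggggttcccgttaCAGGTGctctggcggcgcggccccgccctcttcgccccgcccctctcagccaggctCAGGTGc

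On both strands, this motif was present in 17.2% of the 32851 windows of the same length in the promoter table. Among the members, 5 had an entry (*Twist1*, *Twist2*, *Snai1*, *Zeb2* and *Tcf3*) and 1 of them, *Snai1*, held it, with its first base 126 bases before the start. In a list of epithelial genes that EMT factors are known to repress, 6 of the 11 genes with an entry held it, namely *Epcam*, *Cldn4*, *Tjp3*, *Krt8*, *Krt18* and *Crb3*. These genes were listed as targets of factors that bind E-boxes, so their share is not independent of the motif. In a list of mesenchymal genes that rise in EMT, 0 of the 10 with an entry held it. In both lists 1 window was taken per gene, while the 17.2% counts every window. The longer motif of the Gli factors, which act at the end of the HH pathway (TGGGTGGTC, or GACCACCCA on the other strand), was in 0.225% of all windows and in 0 of the 5 member windows. These matches describe letters in a short window and carry no measurement of binding.

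The labels were checked against HH pathway genes, and *Ptch1*, a direct HH target, had 12.9 and 13.8 TPM with the mutation and 57.8 and 55.1 TPM without it. TPM is the abundance of a transcript corrected for its length and scaled to a fixed total, so that genes can be compared within a library. RNA of *Shh* itself was still present in the mutant pools, at 10.4 and 10.8 TPM against 23.7 and 42.1 TPM. The files give no counts, and the ratio of coverage to FPKM corresponded to 1.37 Gb of aligned bases in the first *Shh-/-* pool and 2.85 to 3.13 Gb in the other 3 libraries. The RNA integrity number was 8.0 and 7.7 in the *Shh-/-* pools, 7.7 in WT pool 4 and 9.0 in WT pool 6. Total RNA was 260 and 200 ng in *Shh-/-* and 210 and 310 ng in WT. Markers of the foregut epithelium were detected in every pool, such as *Epcam* at 86.4 to 123 TPM and *Nkx2-1* at 3.61 to 17.9 TPM, as were mesenchymal markers such as *Pdgfra* at 82.6 to 106 TPM.

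*Tcf3* and *Twist1* had the highest levels of the 8 genes in all 4 libraries, and *Snai3* the lowest. In both WT pools *Twist2* was above *Zeb2*, *Zeb2* above *Zeb1*, and *Zeb1* above *Snai2*, while *Snai1* was above *Twist2* in WT pool 4 and between *Zeb2* and *Zeb1* in WT pool 6. The values of *Twist2* and *Zeb2* lay within the spread between the pools of *Snai1*. In *Shh-/-* larynx *Snai2* was again the seventh of the 8, with 24.9 and 21.1 TPM, close to *Zeb2* and *Zeb1*. The TPM of the 8 genes summed to 515 and 431 in *Shh-/-*, against 353 and 309 in WT. *Twist1* made up 28.6 and 29.0% of that sum in *Shh-/-* and 13.1 and 14.2% in WT. Its share thus differed more between the genotypes than within them.

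**Figure D1:**
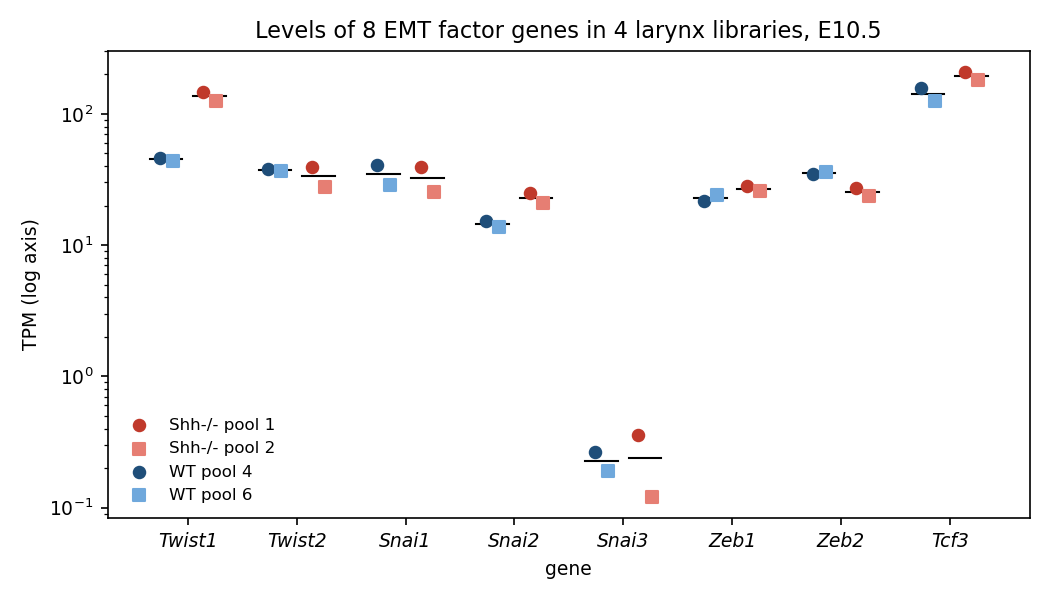
TPM of the 8 genes on a log axis, with 1 point per library (WT pools blue, Shh-/- pools red, circles and squares for the 2 pools of a genotype) and a black line at the mean of each genotype. Twist1 stands apart, with 125 and 147 TPM in Shh-/- against 43.8 and 46.1 TPM in WT, while the points of Twist2, Snai1 and Snai3 overlap between the genotypes.

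*Twist1* was the 1 member of 7 tested whose change passed the test. This bHLH gene, needed for cranial mesenchyme and neural tube closure, is at chromosome 12, 33957671 to 33959817 (mm10, plus strand) and has 2 exons in its annotated transcript. The mutant pools had 147 and 125 TPM, against 46.1 and 43.8 TPM in WT, so that both mutant pools were far above both WT pools. The level was 2.97-fold higher in *Shh-/-* on the log2(TPM + 1) scale, with a 95% interval of 2.39 to 3.70, or 1.57 as a log2 fold change with a standard error of 0.12 (adjusted p = 0.0323, limma with Benjamini-Hochberg adjustment over 16972 genes). This was the 20th lowest p of all genes tested, and 1.18% of them had a larger log2 fold change. In this test 0.725% of the genes tested passed an adjusted p of 0.05, 0.560% as higher and 0.165% as lower in *Shh-/-*. Fits to 3 of the 4 pools gave log2 fold changes of 1.46 to 1.69, but the adjusted p was 0.125 without the first and 0.0699 without the second *Shh-/-* pool, and 0.132 and 0.119 without WT pool 4 and WT pool 6. It was 0.146 with no filter on low TPM.

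*Twist2*, the paralogue of *Twist1*, did not pass the test. It is at chromosome 1, 91801461 to 91848028, plus strand, and encodes a bHLH protein close to TWIST1 that acts in dermal and craniofacial mesenchyme. Its TPM values were 39.3 and 27.9 in *Shh-/-* and 38.1 and 36.7 in WT, with the 2 WT values between the mutant values. The log2 fold change was −0.17 (95% interval −0.66 to 0.31, adjusted p = 0.589 from limma). The 2 genes were at like levels in WT, where the ratio of *Twist1* to *Twist2* TPM was 1.21 and 1.19. In *Shh-/-* the ratio was 3.74 and 4.49. The log2 ratio of (TPM + 1) was 0.27 and 0.25 in WT and 1.88 and 2.13 in *Shh-/-*, a difference of 1.74 between the means (exact permutation test, two-sided, p = 0.333, the smallest p that 2 pools against 2 allow).

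A second gene overlaps the start of *Twist2* on the opposite strand. *Gm29100*, annotated as an antisense RNA, was at 5.41 TPM in the first *Shh-/-* pool and at 0.458 to 0.703 TPM in the other 3 libraries. This pool also had the highest *Twist2* value. The libraries were stranded, but the strand setting of the assembly is not given in the sources used here. The part of shared reads in the *Twist2* value was not tested.

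*Tcf3* was the most abundant member. It is at chromosome 10, 80409514 to 80433647, minus strand, and encodes the broadly expressed E proteins with which Twist proteins pair. Its levels were 208 and 182 TPM in *Shh-/-* and 156 and 126 TPM in WT, and the mutant pools lay above the WT pools. The log2 fold change was 0.47 (95% interval 0.10 to 0.84, adjusted p = 0.152 from limma), which did not pass. After each library was corrected for GC content and transcript length, the log2 fold change of *Tcf3* was 0.01 (adjusted p = 0.957). Its longest transcript has a GC content of 61.0%, the highest of the 8 members. That of *Twist1* was 59.3%, and the same correction left *Twist1* at 1.25 (adjusted p = 0.0386). *Twist1* RNA was at 0.295 and 0.347 of the *Tcf3* level in WT and at 0.706 and 0.686 of it in *Shh-/-*.

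The Snail genes showed no change that passed the test. *Snai1* (chromosome 2, 167538195 to 167542814, plus strand) encodes SNAIL, a protein the study also followed by staining at an earlier stage. Its TPM values were 39.6 and 25.6 in *Shh-/-* and 40.4 and 28.5 in WT. In each genotype the pools differed by over 10 TPM from each other, and the ranges of the genotypes overlapped. The log2 fold change was −0.09 with a 95% interval of −0.79 to 0.61 (adjusted p = 0.851 from limma), an interval wide enough to hold differences of either sign.

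*Snai2* (chromosome 16, 14705852 to 14709395, plus strand), which encodes SLUG and is widely used to mark premigratory and migrating neural crest, was higher in both mutant pools. It measured 24.9 and 21.1 TPM in *Shh-/-* against 15.3 and 13.6 TPM in WT, and the groups did not overlap. This was 0.63 as a log2 fold change, standard error 0.15 (95% interval 0.24 to 1.02, adjusted p = 0.116 from limma). It missed the threshold over all genes tested, and its adjusted p ran from 0.093 to 0.41 over the alternative settings. The ratio of *Snai1* to *Snai2* TPM was 2.65 and 2.09 in WT and 1.59 and 1.21 in *Shh-/-*. The log2 ratio differed by −0.72 (exact permutation test, two-sided, p = 0.333, the smallest possible).

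*Snai3* (chromosome 8, 122454206 to 122460692, minus strand), the least studied Snail gene, was close to the limit of these libraries. It had 0.358 and 0.121 TPM in *Shh-/-* and 0.263 and 0.191 TPM in WT, which corresponds to about 5, 4, 8 and 6 reads of 75 nt in these pools. The mutant values lay on either side of the WT values. It was under the filter of a mean of 1 TPM and was not tested, and at this depth a difference was not detectable. A long annotated gene on the opposite strand, *Gm20388*, spans it.

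The Zeb genes had log2 fold changes of opposite sign, and neither passed the test. *Zeb2* (chromosome 2, 44983632 to 45117395, minus strand) encodes a SMAD-binding repressor that acts in neural crest and neural development. It had 27.3 and 23.7 TPM in *Shh-/-* against 34.9 and 36.02 TPM in WT, and it was the only member with both mutant pools below both WT pools. This was −0.46 as a log2 fold change, standard error 0.13 (95% interval −0.79 to −0.13, adjusted p = 0.135 from limma). *Zeb2os*, a noncoding gene on the opposite strand at the 5′ end of *Zeb2*, was at 1.92 and 3.46 TPM in *Shh-/-* and 2.06 and 3.00 TPM in WT, with overlapping ranges.

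*Zeb1* (chromosome 18, 5591860 to 5775467, plus strand), a repressor of *Cdh1* and of epithelial polarity genes, was at 28.2 and 25.6 TPM in *Shh-/-* and 21.8 and 23.9 TPM in WT. The mutant pools were higher by a small margin, with a log2 fold change of 0.23 (95% interval −0.11 to 0.56, adjusted p = 0.331 from limma). *Zeb1* was at 0.624 and 0.664 of the *Zeb2* level in WT, and at 1.03 and 1.08 of it in *Shh-/-*. The log2 ratio was −0.61 ± 0.06 in WT and 0.08 ± 0.05 in *Shh-/-* (SD, n = 2 pools each, exact permutation test, two-sided, p = 0.333, the smallest possible). Within each genotype the pools were close together in this ratio.

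**Figure D2:**
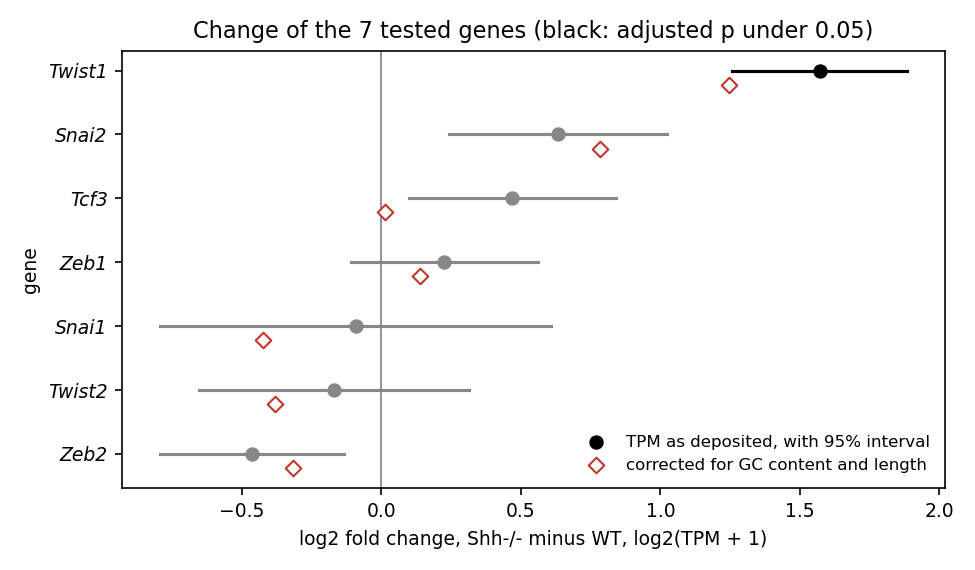
Log2 fold change (Shh-/- minus WT, on log2(TPM + 1)) of the 7 tested genes, with circles and bars for the value and its 95% interval and open diamonds for the value after correction for GC content and transcript length. Twist1, in black, passed an adjusted p of 0.05 at 1.57 (1.25 after correction), and Tcf3 lies at 0.47 without and at 0.01 with the correction.

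Of the 7 tested members, 1 was called at an adjusted p of 0.05 and also at 0.10, which 5.06% of all genes passed. The log2 fold change was above 0 for 4 members and for 58.3% of all genes. The genotypes did not overlap for 5 members and for 60.7% of all genes. Both mutant pools were above both WT pools for 4 of these (38.0% of all genes) and below them for 1 (22.7%). An unadjusted p under 0.05 was found for 4 members, with *Twist1*, *Snai2* and *Tcf3* higher and *Zeb2* lower in *Shh-/-*, and for 24.8% of all genes, 17.5% as higher and 7.22% as lower. The median log2 fold change of all genes tested was 0.08. The correction for GC content and length, chosen after the data were seen, moved 4 values by more than 1.5 times, with *Twist2* at −0.38, *Snai1* at −0.43 and *Zeb1* at 0.14 besides *Tcf3*, and none of these 4 passed.

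**Figure D3:**
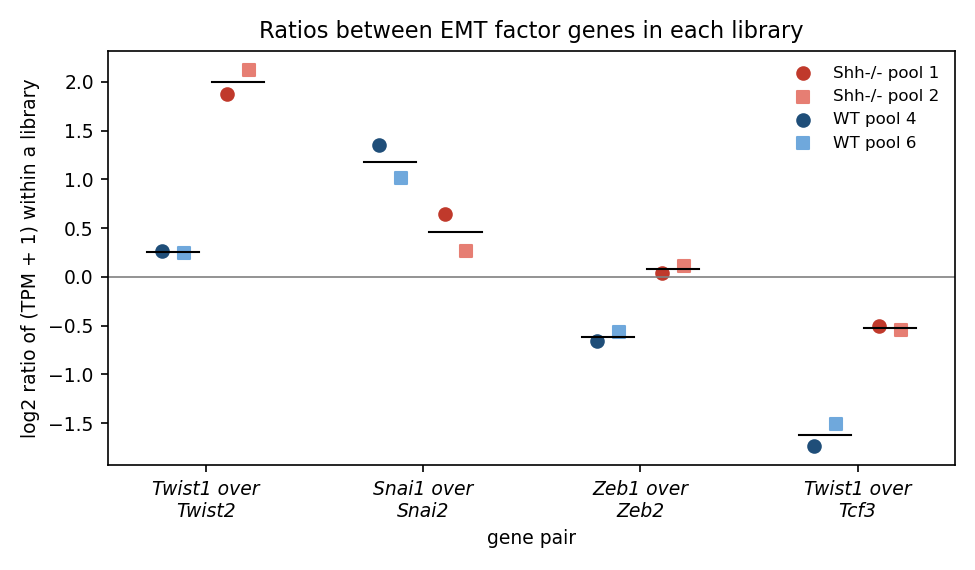
Log2 ratio of (TPM + 1) between 2 genes within each library, with 1 point per library (WT blue, Shh-/- red) and a black line at the mean of each genotype. The pair Snai1 over Snai3 was compared but is not drawn, and its values overlap (4.90 and 4.57 in Shh-/-, 5.04 and 4.63 in WT). In the 4 pairs drawn the WT and Shh-/- points do not overlap, and the widest gap is that of Twist1 over Twist2, at 0.25 and 0.27 in WT and 1.88 and 2.13 in Shh-/-. The levels of single genes did not overlap for 60.7% of all genes tested, and the share over other gene pairs was not computed. Each of these pairs had p = 0.333 in the exact permutation test, the smallest that 2 pools against 2 allow. The pairs with Twist2 and with Tcf3 share Twist1 and are not independent.

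The profile of *Twist1* over the 4 libraries was most like those of *Eya2*, *Il11ra1* and *Eln*, among 12536 genes with a mean of at least 5 TPM. Likeness was the Euclidean distance between profiles of log2(TPM + 1) centred on their own means, which was 0.0696, 0.0797 and 0.106. *Eya2*, a transcriptional co-activator and phosphatase, was at 26.1 and 21.4 TPM in *Shh-/-* and at 7.48 and 6.70 TPM in WT. *Eln*, the elastin gene, was at 18.9 and 17.2 against 5.76 and 5.69 TPM. For *Zeb2* the nearest profiles were those of *Gm12583*, *Usp14* and *Trappc13*, at distances of 0.0378 to 0.0417. These distances rest on 4 libraries and 2 genotypes.

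Dimer partners and inhibitors of the bHLH factors were followed as a list of 8 genes, all tested. None passed the test, 5 were higher and 3 lower, and the median log2 fold change was 0.22. This median was 0.107 without the first *Shh-/-* pool, 0.067 without WT pool 6, 0.33 without the second *Shh-/-* pool and 0.352 without WT pool 4, and 0.09 after median centring. *Hand1* and *Hand2* are bHLH factors that can pair with Twist proteins. *Hand1* had 6.67 and 5.42 TPM in *Shh-/-* against 18.1 and 15.8 TPM in WT, a log2 fold change of −1.35 (adjusted p = 0.0595 from limma). It passed in 4 of the alternatives, with adjusted p of 0.0341 after median centring, 0.0393 after quantile normalization, 0.0382 after the GC and length correction and 0.0484 with protein-coding genes alone. *Hand2* was at 82.4 and 55.2 against 40.8 and 35.4 TPM (0.81, adjusted p = 0.131). The E protein genes *Tcf12* and *Tcf4* had log2 fold changes of −0.43 and 0.26. The Id genes encode HLH proteins that tie up E proteins, and *Id3* had the highest log2 fold change of the 4, at 0.49 (adjusted p = 0.108).

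Genes of co-repressors that Snail and Zeb proteins recruit numbered 14, with none called, 9 higher and 5 lower, and a median log2 fold change of 0.17 that became −0.05, with 4 higher and 10 lower, after the GC and length correction. *Ctbp1*, whose protein binds Zeb factors, was at 224 and 235 TPM in *Shh-/-* and 186 and 147 TPM in WT (0.47, adjusted p = 0.147 from limma), and *Smarca4*, a chromatin remodeler ATPase, had a log2 fold change of 0.43. The lowest values were those of the Polycomb genes *Suz12* (−0.42) and *Eed* (−0.16).

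Regulators of the turnover of these proteins, 10 genes, had a median of 0.09 with 7 higher, 3 lower and none called, and the median was −0.02 after quantile normalization and −0.04 after median centring, with 4 higher in each. *Fbxl14*, a ubiquitin ligase subunit for Snail and Twist proteins, had a log2 fold change of 0.42 (adjusted p = 0.164 from limma) and *Btrc* of 0.26. *Fbxl5* was at −0.42 (adjusted p = 0.153) and *Gsk3b*, the kinase that marks SNAIL for degradation, at −0.04.

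The epithelial genes that EMT factors are known to repress were 19, and none passed the test in either direction. The median log2 fold change was 0.18, with 13 higher and 6 lower, and it was −0.06, with 7 higher and 12 lower, after the GC and length correction. It was 0.033 without the first *Shh-/-* pool, 0.092 without WT pool 6 and 0.295 without the second *Shh-/-* pool, and about 0.05 after quantile normalization or median centring, with 11 higher and 8 lower in each. *Cldn1*, a tight junction gene, was at 7.95 and 6.05 TPM in *Shh-/-* and 4.63 and 3.09 TPM in WT (0.73, adjusted p = 0.17 from limma), and *Marveld3*, also of tight junctions, had a log2 fold change of 0.48. The lowest were *Dsp*, the desmoplakin gene, at −0.59 and *Esrp2*, an epithelial splicing regulator, at −0.45. *Cdh1*, named here after its values were seen, had 41.1 and 25.9 TPM in *Shh-/-*. In WT it had 45.2 and 43.2 TPM, so each mutant value was the smaller one. This gave −0.425 (adjusted p = 0.311 from limma), which did not pass. *Cdh1* had no promoter entry. *Crb3*, whose window with 3 E-boxes was shown, had 14.95 and 12.9 TPM in *Shh-/-* and 13.0 and 11.1 TPM in WT, with overlapping ranges (0.20, adjusted p = 0.474). The other 5 genes of this list with the motif in their windows had log2 fold changes from 0.07 (*Cldn4*) to 0.44 (*Krt8*). These 2 genes and *Crb3* were chosen for their windows after their values were seen.

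Transcription factors that hold the epithelial state numbered 12, of which 9 were tested, 5 higher and 4 lower. The median was 0.03, and it was −0.08 after quantile normalization, −0.10 after median centring and −0.22 after the GC and length correction, with 3 higher and 6 lower in each. It was also below 0 without the first *Shh-/-* pool (−0.081) and without WT pool 4 (−0.085), and was 0.138 without WT pool 6. *Ovol2* and *Grhl2*, which oppose Zeb expression in epithelia, had values near 0 (0.03 and 0.08, chosen after their values were seen). *Klf4* (0.68) and *Elf3* (0.49) were the highest. The lowest were the foregut endoderm genes *Foxa2*, at 5.34 and 9.12 against 29.2 and 39.8 TPM (−2.13, adjusted p = 0.0602 from limma, and 0.0487 with protein-coding genes alone), and *Foxa1* (−1.004, adjusted p = 0.102).

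Mesenchymal genes that rise in EMT, 17 in the list and 16 tested, had a median log2 fold change of 0.54 with 14 higher and 2 lower, and 0.22 with 10 higher and 6 lower after the GC and length correction. Several of them, such as *Cdh2*, *Vim* and *Fn1*, were reported by the study as higher in *Shh-/-* in these same libraries, at an FDR under 0.05. The direction of this list is therefore not independent evidence. The methods of the study name no test for those calls. In the limma fit used here these genes were also higher, at 0.72, 0.53 and 0.895 (adjusted p = 0.0766, 0.0728 and 0.122). None of the 16 passed an adjusted p of 0.05 in this fit. *Postn* did with the GC and length correction (0.0355, limma) and with protein-coding genes alone (0.0484). So did *Acta2*, the smooth muscle actin gene, with protein-coding genes alone (0.0481). *Postn*, the periostin gene, a target of TWIST1 in bone and tooth development, was at 119 and 67.8 TPM in *Shh-/-* and 16.2 and 20.1 TPM in WT (2.25, adjusted p = 0.0595 from limma). *Col1a2* had a log2 fold change of 0.97 (adjusted p = 0.0602). *Cdh11* (−0.71, adjusted p = 0.0972) and *Tnc* (−0.39) were the 2 genes below 0.

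Other transcription factors linked to EMT were followed as 11 genes, of which 8 were higher and 3 lower and none passed the test, with a median of 0.465 (0.249, with 7 higher and 4 lower, after the GC and length correction). The homeobox gene *Gsc* had 4.10 and 2.46 TPM in *Shh-/-* against 0.673 and 0.677 TPM in WT, a log2 fold change of 1.33 (adjusted p = 0.0975 from limma). *Prrx1*, a marker of limb and craniofacial mesenchyme, had 178 and 129 against 65.6 and 71.1 TPM (1.14, adjusted p = 0.0715). *Foxq1* (−0.74) and *Foxc1* (−0.24) were the lowest.

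**Figure D4:**
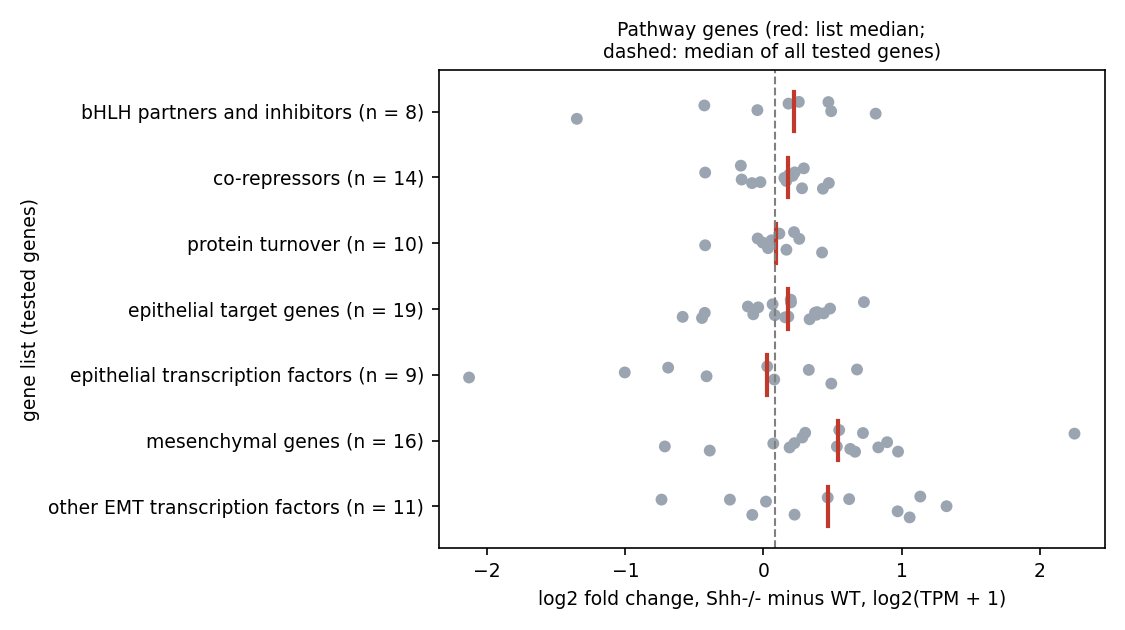
Log2 fold change (Shh-/- minus WT, on log2(TPM + 1)) of each tested gene in 7 lists, with a red line at the median of each list and a dashed line at the median of all genes tested, 0.08. The medians of the mesenchymal genes (0.54) and of the other EMT transcription factors (0.465) lie farthest to the right.

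Summed markers of several cell types differed with the genotype. In whole tissue, fewer cells of a type and less RNA per cell cannot be told apart. The 11 foregut epithelium markers had overlapping sums, at 706 and 612 TPM in *Shh-/-* and 648 and 661 TPM in WT, with 6 higher, 5 lower and none called. Among the 5 were *Foxa2* and *Nkx2-1*, a lung and thyroid factor that had 6.16 and 3.61 TPM in *Shh-/-* against 15.9 and 17.9 TPM in WT (−1.64, adjusted p = 0.0715 from limma, chosen after its values were seen). The split of the 11 markers was 4 higher and 7 lower after median centring. It was 3 higher and 8 lower, with a median of −0.194, after the GC and length correction. The 10 neural crest markers summed to 244 and 210 TPM in *Shh-/-* and 174 and 143 TPM in WT, with 9 higher and 1 lower, and *Pax3* and *Ngfr* called as higher. The 8 splanchnic mesenchyme markers, many of which are HH targets, summed to 35.9 and 67.0 TPM against 200 and 171 TPM, with 7 lower and 1 higher, and *Foxf2* and *Hhip* called as lower. General mesenchyme markers summed to 1094 and 1048 TPM in *Shh-/-* and 890 and 968 TPM in WT, with 6 of 10 higher, a count that was 5 after median centring and 4 after the GC and length correction (median −0.176). Neuron, muscle and endothelium markers had higher sums in both mutant pools, at 572 and 598 against 246 and 231 TPM, 225 and 356 against 126 TPM in each WT pool, and 428 and 508 against 286 and 263 TPM. Of 11, 11 and 8 genes in these lists, 10, 9 and 8 were higher, and 2 muscle genes were under the filter. After median centring, and also after the GC and length correction, 9 neuron and 7 muscle genes were higher and 2 of each were lower. The called genes were 5 neuron markers (*Stmn2*, *Tubb3*, *Elavl3*, *Phox2a* and *Gap43*), the muscle gene *Myh7* and the endothelial gene *Tie1*, all as higher in *Shh-/-*. *Tie1* was not called after quantile normalization, median centring or the GC and length correction, and *Pax3* was not called after that correction. With any 1 pool left out, 0 genes of the marker lists were called. Blood markers had overlapping sums of 10574 to 16791 TPM, and those of macrophages of 8.81 to 14.97 TPM. No marker was at 0 in all 4 libraries.

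The level of *Twist1* was also set against these sums. As a share of the general mesenchyme sum it was 13.4 and 11.9% in *Shh-/-* and 5.18 and 4.53% in WT. As a share of the neural crest sum it was 60.2 and 59.6% against 26.5 and 30.7%. These shares did not overlap between the genotypes. *Twist1* was at 20.8 and 20.4% of the foregut epithelium sum in *Shh-/-* and 7.11 and 6.63% in WT. Against the endothelium sum it was 34.4 and 24.6% and then 16.1 and 16.7%. Against the splanchnic mesenchyme sum, itself lower in *Shh-/-*, it was 409 and 187% and then 23.0 and 25.6%, with the mutant pools far apart. Against the neuron sum it was 25.7 and 20.9% in *Shh-/-* and 18.75 and 18.95% in WT, and against the muscle sum 65.4 and 35.2% and then 36.55 and 34.7%, with overlap in the latter. *Snai2* was 10.2 and 10.1% of the neural crest sum in *Shh-/-* and 8.76 and 9.56% in WT. Its level thus differed less against these markers than against all RNA, but this depended on the list. Against the general mesenchyme sum *Snai2* was 2.27 and 2.01% in *Shh-/-* and 1.72 and 1.41% in WT. Against the foregut epithelium sum it was 3.52 and 3.44% and then 2.35 and 2.06%. The share was lower in *Shh-/-* against the neuron sum, at 4.35 and 3.52% against 6.21 and 5.89% in WT. It overlapped between the genotypes against the muscle and endothelium sums. *Zeb2* was 11.2 and 11.3% of the neural crest sum in *Shh-/-* and 20.1 and 25.3% in WT. Its share was also lower in *Shh-/-* against the foregut epithelium, general mesenchyme, neuron, muscle, endothelium and macrophage sums, and overlapped against the blood sum. Against the splanchnic mesenchyme sum, itself lower in *Shh-/-*, the direction was reversed. There *Zeb2* was at 75.9 and 35.4% in *Shh-/-* and 17.4 and 21.1% in WT. The part of cell composition in these values was not tested.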

How the data were processed

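RNA-seq was analysed from 4 libraries. The authors made stranded, poly(A)-selected, single-end libraries, aligned them to mm10 with HISAT2 2.1.0 and assembled genes with StringTie 1.3.6 (submitters' processing notes). Per the file headers, the deposited tables give coverage (a signal that is not normalized between libraries), FPKM and TPM per gene. The authors scaled TPM to a fixed total in each library. Counts were not used. Aligned bases were taken from the ratio of coverage to FPKM in genes with 1 transcript, and a read length of 75 nt from low-coverage genes, of which 28.6% then gave whole reads (within 0.02), against 15.2% at the next best length. Such read numbers are approximate and no counting interval was computed. All 37 mitochondrial genes are listed at 0.

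TPM was summed per gene ID. limma 3.58.1 in R 4.3.3 (lmFit, eBayes with a mean-variance trend) was run on log2(TPM + 1) for 16972 genes with a mean of at least 1 TPM, as *Shh-/-* minus WT without covariates. Adjusted p-values are Benjamini-Hochberg over all these genes, with a threshold of 0.05, and fold changes understate those of low genes. The labels of replicates do not say more than separate pools. The p-values thus rest on the spread between these pools, with the variance of each gene moderated by that of other genes of like level. Pairs of members were compared as log2 ratios of (TPM + 1) with an exact permutation test. Lists were described by counts and medians without a set test. Named genes were all members, *Shh* and *Ptch1*, genes overlapping a member, the called genes of each list with its 2 highest and 2 lowest log2 fold changes, and the 3 genes nearest in profile to the members with the highest and lowest value. Marker lists are given by their sums. The members and lists were chosen with earlier results of these data known. A gene of the list of other EMT transcription factors is not reported here and was left out of its counts. *Patj* was matched by gene ID as *Inadl*. GENCODE M21 (GRCm38) gave transcript length and GC content. The scripts were tested on simulated data. Alternatives were another pseudocount (0.1), no filter or a mean of 5 TPM, quantile normalization, median centring, FPKM, eBayes without trend or with robust variance, an adjusted p of 0.10, and fits that left out a pool. Chosen after seeing the data were a fit to protein-coding genes alone and one in which GC content and length were regressed out per library (natural splines, 5 degrees of freedom each, 16887 genes).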

Additional observations from a re-analysis of the deposited data

How the results depend on the processing

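*Twist1* stayed higher in *Shh-/-* under all 14 alternatives, at 1.25 to 1.69 on the log2 scale, and it was the 1 member called in 9 of them. Without a filter on low TPM its log2 fold change was 1.57 with an adjusted p of 0.146, and 0 members were called. With 1 pool left out, where the lone pool of a genotype is assumed to vary like the others, it ran from 1.46 to 1.69 and 0 members were called each time (fewer samples). The direction of *Snai1* reversed to 0.21 without the second *Shh-/-* pool and 0.15 without WT pool 4, over a range of −0.40 to 0.21, and that of *Twist2* to 0.07 without the second *Shh-/-* pool, over a range of −0.41 to 0.07. The log2 ratio of *Snai1* to *Snai3* differed by −0.10 between the genotypes, and by 0.067 and 0.101 without those same pools, over a range of −0.302 to 0.101. The other tested members and pairs kept their direction in every alternative run, although *Tcf3* came to 0.01 with the GC and length correction. Over all genes, 123 were called, 69 with a pseudocount of 0.1, 0 without a filter (28524 genes tested, 5011 with an unadjusted p under 0.05), 189 among protein-coding genes, 858 at an adjusted p of 0.10, and 0 to 16 with 1 pool left out. The median of all genes moved from 0.08 to −0.05 with median centring, where *Twist1* was at 1.44, *Snai2* at 0.50 and *Zeb2* at −0.59. List medians moved beyond the spread between pools as follows. Median centring gave 0.046 for co-repressors, 0.41 for mesenchymal genes and −0.042 for protein turnover, and quantile normalization gave −0.021 for the latter, which ran from −0.022 to 0.188 with 1 pool left out. The GC and length correction gave −0.048 for co-repressors, −0.22 for epithelial transcription factors, 0.22 for mesenchymal genes and 0.249 for other EMT transcription factors. A filter of 5 TPM gave −0.55 for epithelial transcription factors, with fewer genes tested. The causes were otherwise not tested. No paired analysis was possible because the pools carry no shared replicate numbers. Depth limits *Snai3* most.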
